A study of Homo sapiens with 4 samples.

Results

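The laminin chain genes LAMA1, LAMA2, LAMA3, LAMA4, LAMA5, LAMB1, LAMB2, LAMB3 and LAMC1 were followed in arrays labelled as PC3 cells. PC3 is a prostate cancer line derived from a metastasis in bone. They were matched by current gene symbol and gene number, and 8 of the 9 listed genes, of 18417 genes in all, had a probe set annotated to a single gene. Each of the 8 had 1 such probe set. LAMA3 had none and was not analysed here. Its symbol also appears in the gene table as an older name of LAMA4, and LAMB2 likewise as an older name of LAMC1, and neither older name was used. By their description, 2 arrays are of cells stably transfected with prostate-derived ETS factor (PDEF, the product of SPDEF), called PDEF-PC3. The other 2 arrays are of cells with the empty vector pBABE (VC-PC3, called PC3-SCR in the labels). Both groups were grown in the same serum-containing medium without a further treatment, and whether replicate arrays stem from independent cultures is not stated in the sources used here. The spread behind each p-value is that of these arrays alone and may be technical.

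Laminins are secreted heterotrimers of an alpha, a beta and a gamma chain that polymerize into the sheet of the basement membrane. The trimer type is set by which chains a cell makes. The alpha chain carries the globular end bound by integrins and dystroglycan, the beta and gamma chains complete the coiled rod, and the gamma-1 chain holds the nidogen that links laminin to type IV collagen. The alpha-3 and beta-3 chains belong to the epithelial laminin under hemidesmosomes, the junctions that anchor basal cells. The alpha-1 chain is typical of embryonic basement membranes, the alpha-5 chain of adult epithelia and the alpha-2 and alpha-4 chains of muscle, nerve and vessel walls.

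Replicate arrays correlated at 0.996 (PDEF-PC3) and 0.994 (VC-PC3) by Pearson's r over probe sets, which are not independent replicates, and pairs across groups at 0.954 to 0.956. The transfected gene, SPDEF, read 6.85 and 6.73 (log2 signal) in PDEF-PC3, against 5.99 and 6.06 in VC-PC3, a 1.70-fold higher level. The share of all genes with a lower log2 fold change than SPDEF was 86.9%. Both copies of CTNNA1 and of STAT3 are missing from PC3, as other work has shown. These genes had log2 values of 9.76 and 9.86 (CTNNA1) and of 9.06 and 9.05 (STAT3) in the PDEF-PC3 arrays, against 4.77 and 4.07 and against 4.51 and 4.70 in the VC-PC3 arrays. The PDEF-PC3 arrays thus go against their cell line label, and they are called here by that label only. Each result below compares these same arrays, so a difference in the cells themselves and an effect of PDEF cannot be told apart. Background was gauged in each array by the highest of 341 olfactory receptor genes, a family transcribed by few tissues outside the nose. It lay at 5.65 and 5.75 in PDEF-PC3 and at 5.94 and 6.01 in VC-PC3, where SPDEF was just above it.

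The beta chain genes show the widest spread of the differences described below, from LAMB3 to LAMB1, and their promoters are therefore printed first. Each is a RefSeq window of assembly GRCh38.p14, read 5′ to 3′ on the strand of the gene, with 250 bases before and 50 bases after the transcription start. Capitals mark matches on either strand to the AP-1 motif TGANTCA, the TEAD motif GGAATG, the ETS motif CCGGAT preferred by PDEF, or the ETS motif CCGGAA. LAMB3 (chr1:209614870-209652425) has 3 annotated starts, of which the upstream one overlaps the second and holds none of these motifs, and the windows of the second and the third are shown.
LAMB3 start 2, chr1:209652280-209652579, minus strand: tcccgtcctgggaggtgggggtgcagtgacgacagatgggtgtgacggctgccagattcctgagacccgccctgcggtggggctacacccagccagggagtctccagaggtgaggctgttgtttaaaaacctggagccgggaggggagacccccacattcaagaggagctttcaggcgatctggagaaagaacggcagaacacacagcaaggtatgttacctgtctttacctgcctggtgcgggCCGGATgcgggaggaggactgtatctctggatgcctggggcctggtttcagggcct
LAMB3 start 3, chr1:209651325-209651624, minus strand: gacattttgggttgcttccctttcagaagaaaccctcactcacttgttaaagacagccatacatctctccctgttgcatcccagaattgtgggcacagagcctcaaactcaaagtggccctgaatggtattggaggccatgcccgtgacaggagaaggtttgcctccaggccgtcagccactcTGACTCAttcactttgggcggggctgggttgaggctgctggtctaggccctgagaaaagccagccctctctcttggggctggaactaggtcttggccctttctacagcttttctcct
LAMB2, chr3:49133001-49133300, minus strand: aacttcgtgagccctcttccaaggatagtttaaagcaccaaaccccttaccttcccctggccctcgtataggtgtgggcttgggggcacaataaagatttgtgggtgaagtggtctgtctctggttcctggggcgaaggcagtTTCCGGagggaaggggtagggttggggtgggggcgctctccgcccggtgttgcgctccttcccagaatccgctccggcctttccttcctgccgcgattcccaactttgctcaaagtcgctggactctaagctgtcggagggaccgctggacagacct
LAMB1, chr7:108003112-108003411, minus strand: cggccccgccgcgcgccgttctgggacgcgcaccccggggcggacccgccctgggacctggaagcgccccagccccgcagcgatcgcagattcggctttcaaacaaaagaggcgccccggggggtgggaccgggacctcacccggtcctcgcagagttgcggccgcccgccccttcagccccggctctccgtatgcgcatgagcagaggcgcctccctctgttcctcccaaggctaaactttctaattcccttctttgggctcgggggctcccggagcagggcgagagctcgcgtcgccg
The LAMB3 windows hold CCGGAT starting 6 bases before the second start and an AP-1 match starting 67 bases before the third. The LAMB2 window holds CCGGAA, and the LAMB1 window holds no match. A window was found for 8 of the 9 genes listed. Of the others, LAMA5 holds CCGGAA, LAMA4 holds CCGGAT, LAMA2 holds CCGGAT and the TEAD motif, LAMA3 holds 2 AP-1 matches and LAMC1 holds none. The ETS motifs can share bases with each other. Of all 35116 promoter windows of this length, 7.71% hold the AP-1 motif, 14.0% the TEAD motif, 7.12% CCGGAT and 17.2% CCGGAA. These matches describe the letters of the windows and do not show binding.

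Laminin chains differed in both the direction and the size of their change. PDEF-PC3 arrays had a far lower LAMB3 signal and lower LAMB2 and LAMA5 signals than VC-PC3 arrays, and a higher LAMA1 signal. LAMB1 and LAMC1, the beta and gamma chains most widely shared between laminins, differed little. Of the 8 genes, 4 changed at an adjusted p under 0.05 (limma, Benjamini-Hochberg over all genes), where 50.7% of all genes did. Lower levels were called for 3 of the 8, against 24.0% of all genes, and a higher level for 1, against 26.7%. For 6 of the 8 the groups were without overlap, against 74.7% of all genes. Their median log2 fold change of -0.072 lay close to the -0.05 of all genes.

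**Figure D1:**
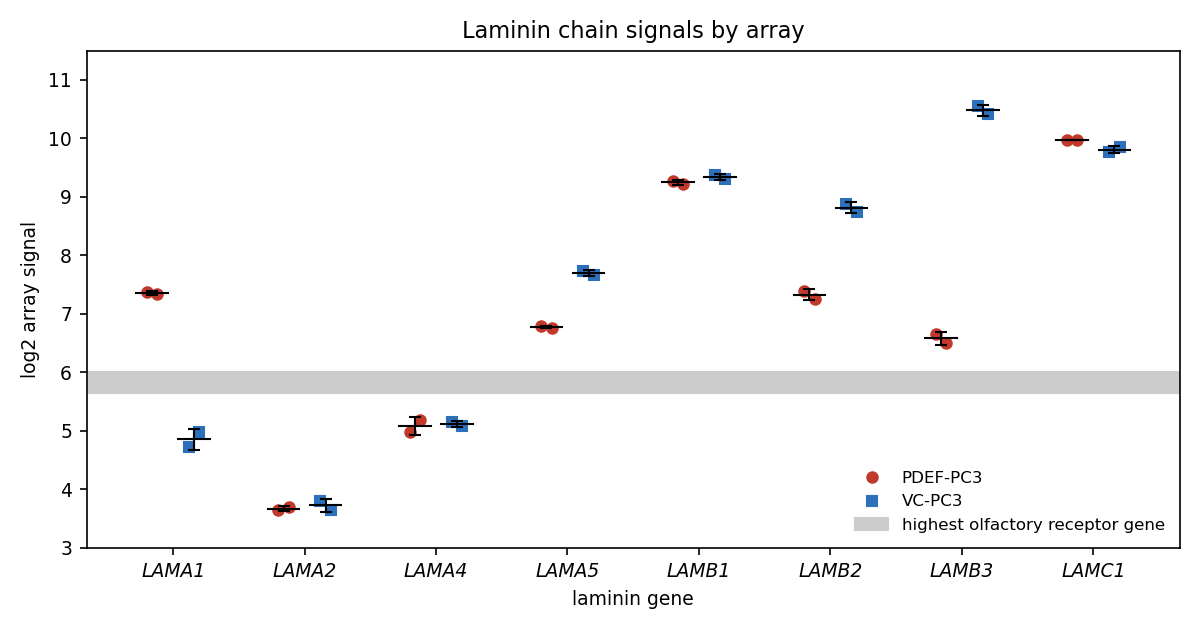
Log2 array signal (vertical axis) of the 8 laminin genes (horizontal axis) in each PDEF-PC3 (circles) and VC-PC3 array (squares), with the group mean (line) and SD (bar, n = 2). The grey band spans the highest olfactory receptor gene of the arrays, 5.65 to 6.01. LAMB3 lies at 6.66 and 6.50 in PDEF-PC3 against 10.55 and 10.41 in VC-PC3, above the band in both groups. LAMA1 lies below the band in VC-PC3 and above it in PDEF-PC3.

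Among the beta chains, LAMB3 encodes the beta-3 chain of epithelial laminin. Its log2 signals were 6.66 and 6.50 in PDEF-PC3, against 10.55 and 10.41 in VC-PC3. Both PDEF-PC3 arrays lay far below both VC-PC3 arrays but above the background gauge. In limma the LAMB3 log2 signal fell by 3.90 with a standard error of 0.0996 (adjusted p = 3.03e-06), that is to a 14.9-fold lower level. The share of all genes with a lower log2 fold change than LAMB3 was 0.103%. On a bulk array, fewer cells that make a transcript and less transcript per cell cannot be told apart. LAMB2 (chr3:49121114-49133050) encodes the beta-2 chain, known from the neuromuscular junction and the kidney filter. Its log2 signals were 7.40 and 7.26 in PDEF-PC3, against 8.88 and 8.75 in VC-PC3, without overlap. LAMB2 fell by 1.49 (standard error 0.0960, adjusted p = 5.02e-05), a 2.80-fold lower level. LAMB1 (chr7:107923799-108003161) encodes the beta-1 chain, found in embryonic and most adult laminins. Its log2 signals were 9.28 and 9.22 in PDEF-PC3, against 9.38 and 9.30 in VC-PC3. The groups were apart, though by little, and the log2 fold change was -0.09 (95% interval -0.29 to 0.11, adjusted p = 0.413). The LAMB1 interval leaves out a change of the size seen for LAMB2 or LAMB3. LAMB3 and LAMB2 were the members that were lower at 2-fold or more, as were 6.07% of all genes.

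Among the alpha chains, LAMA1 (chr18:6941742-7117797) encodes the alpha-1 chain. Its log2 signals were 7.38 and 7.34 in PDEF-PC3, against 4.73 and 4.98 in VC-PC3. Both PDEF-PC3 arrays lay above the background gauge and both VC-PC3 arrays below it. The LAMA1 log2 signal rose by 2.51 with a standard error of 0.107 (limma, adjusted p = 1.12e-05), and 8.67% of all genes rose at least 2-fold. Since VC-PC3 was not above this gauge, the change is given as a bound. LAMA1 was at least 2.61-fold higher in PDEF-PC3, with the gauge in place of the VC-PC3 signals. LAMA5 (chr20:62309065-62367312) encodes the alpha-5 chain. Its log2 signals of 6.79 and 6.76 in PDEF-PC3 lay below the 7.73 and 7.66 in VC-PC3, and all 4 values were above the gauge. LAMA5 fell by 0.92 (standard error 0.0821, adjusted p = 0.000186), a 1.89-fold lower level.
The alpha chain genes of mesenchymal tissues were below the gauge in all 4 arrays. LAMA4 (chr6:112107931-112254985) had log2 values of 4.98 and 5.19 in PDEF-PC3, against 5.15 and 5.08 in VC-PC3. LAMA2 (chr6:128883138-129516566) had 3.64 and 3.70 in PDEF-PC3, against 3.80 and 3.65 in VC-PC3. The groups overlapped for both genes. Their log2 fold changes from limma were -0.03 (adjusted p = 0.829) for LAMA4 and -0.055 (adjusted p = 0.652) for LAMA2. At signals not above the gauge, a change in these transcripts could be missed. Markers of cells that make these chains were mostly dim as well. Below the gauge in every array were 6 of 7 fibroblast genes, 4 of 6 endothelial genes and 3 of 4 smooth muscle genes. So were 7179 of all 18417 genes. COL1A1 and DES stood above the gauge in every array, and in VC-PC3 so did KDR and, in 1 array, CLDN5. The mean log2 signal of the fibroblast genes was 4.61 and 4.57 in PDEF-PC3, against 5.18 and 5.04 in VC-PC3, and 3 of them were called lower, beside 24.0% of all genes.

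LAMC1 (chr1:183023420-183145592) encodes the gamma-1 chain, the partner of both embryonic and adult alpha and beta chains. Its log2 signals were 9.97 and 9.98 in PDEF-PC3, against 9.77 and 9.85 in VC-PC3. The PDEF-PC3 arrays were the higher ones, by a log2 fold change of 0.17 (standard error 0.0825, 95% interval -0.035 to 0.37, adjusted p = 0.145 from limma). The interval leaves out a 2-fold change in either direction. With a variance trend in the fit the adjusted p of LAMC1 was 0.0236. The plot of log2 fold changes sets these intervals beside the alternatives.

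**Figure D2:**
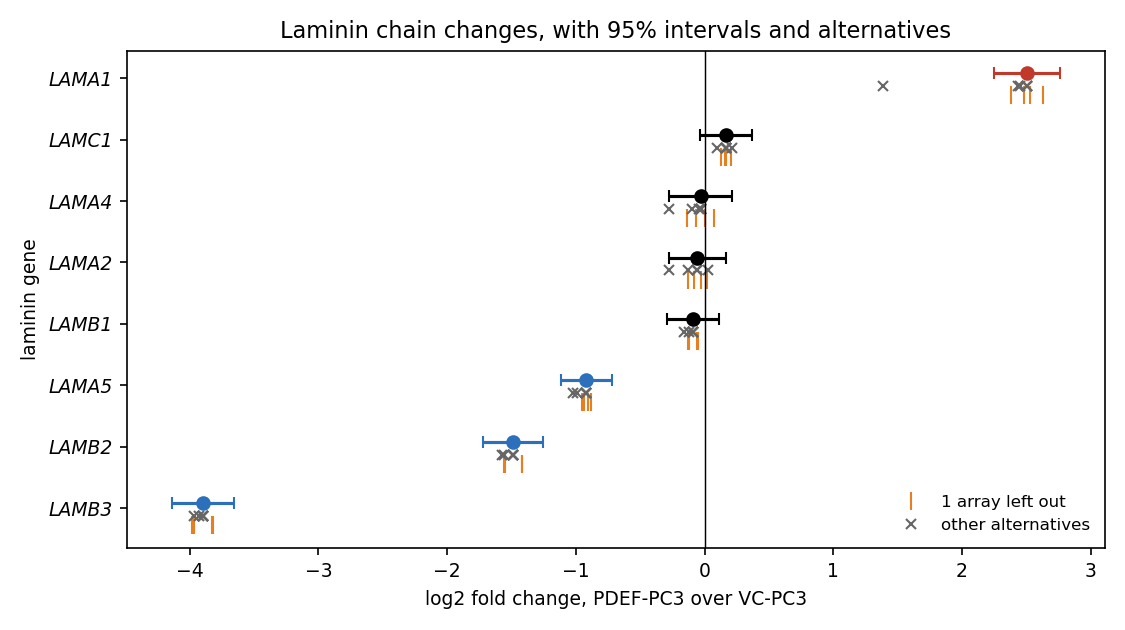
Change of each laminin gene (vertical axis) in PDEF-PC3 over VC-PC3, as log2 fold change (horizontal axis), with the 95% interval from limma (bars, 2 arrays per group), blue where lower, red where higher and black where the test was not passed. Orange ticks leave out 1 array each and grey crosses are the other alternatives. LAMB3 at -3.90, LAMB2 at -1.49 and LAMA5 at -0.92 stay below 0 throughout, and LAMA1 at 2.51 stays above.

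The change of LAMB3 over the 4 arrays was most like that of SPOCK1, a testican proteoglycan gene, with a Euclidean distance of 0.115 between log2 signals centred on their own means. SERPINB7, a serpin gene (0.148), and VEPH1 (0.153) came next. SERPINB7 had log2 values of 7.13 and 7.09 in PDEF-PC3, against 10.98 and 11.01 in VC-PC3. The change of LAMA1 was most like that of the zinc finger gene ZNF382 (0.054), the sestrin gene SESN1 (0.055) and FGFR2, a fibroblast growth factor receptor gene (0.106). FGFR2 had log2 values of 6.36 and 6.39 in PDEF-PC3, against 3.86 and 4.04 in VC-PC3. With 4 arrays in 2 groups, such likeness reflects little beyond the size of the group difference.

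Genes that act with laminins were counted in lists by role. Of 11 laminin receptor genes listed, 9 were measured. Of these limma called 6 lower in PDEF-PC3, 1 higher and 2 neither way, where 24.0% of all genes were lower and 26.7% higher. Their median log2 fold change was -0.83. ITGA3, the integrin alpha-3 gene whose product binds the epithelial and alpha-5 laminins, had log2 values of 7.09 and 6.94 in PDEF-PC3, against 10.74 and 10.65 in VC-PC3. The groups were far apart, and ITGA3 fell by 3.68 (adjusted p = 3.03e-06), a 12.8-fold lower level. ITGA6, the integrin alpha-6 gene, had 8.40 and 8.57 in PDEF-PC3, against 11.07 and 11.05 in VC-PC3, and fell by 2.58 (adjusted p = 6.40e-06). ITGB1 encodes the beta subunit that pairs with both of these alpha subunits, and ITGB4 encodes one that pairs with alpha-6. ITGB1 fell by 2.14 (adjusted p = 9.76e-06) and ITGB4 fell by 1.21 (adjusted p = 8.18e-05). The ITGB4 signals in PDEF-PC3, 4.94 and 5.08, were not above background, so that it was at least 1.43-fold lower there. ITGA7, the muscle laminin receptor gene, is named after its values were seen. It was the receptor gene called higher (adjusted p = 0.0109), with log2 values of 5.65 and 5.70 in PDEF-PC3, against 5.35 and 5.22 in VC-PC3. None of the 4 values was above the gauge, so no fold is given. With values raised to the gauge the log2 fold change of ITGA7 turned to -0.28. Its adjusted p was 0.0827 without PDEF-PC3 replicate 1, 0.105 without PDEF-PC3 replicate 2 and 0.0672 without VC-PC3 replicate 2.
Of 6 genes of hemidesmosomes and anchoring fibrils, 5 were measured. Of these 3 were called lower, none higher and 2 neither way, beside 24.0% lower and 26.7% higher among all genes. PLEC, which encodes the plakin that ties integrin to keratin filaments, had log2 values of 6.66 and 6.73 in PDEF-PC3, against 8.65 in both VC-PC3 arrays, and fell by 1.96 (adjusted p = 1.04e-05). DST, which encodes a second such plakin, fell by 0.69 (adjusted p = 0.000655). The other gene called lower, COL7A1, which encodes the anchoring fibril collagen and is named after its values were seen, was below the gauge in all arrays. Its adjusted p was 0.0381, and 0.0776 to 0.170 with any 1 of the 4 arrays left out, 0.0684 with a variance trend and 0.0908 with the replicate block.

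**Figure D3:**
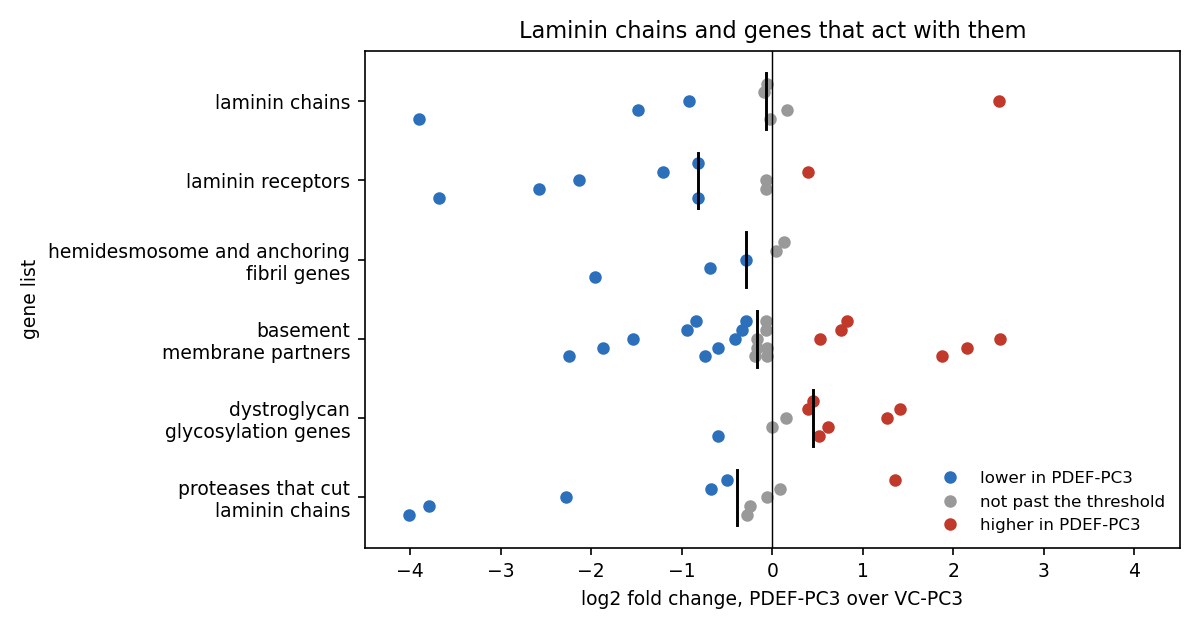
Measured genes of 6 lists (vertical axis) by their log2 fold change in PDEF-PC3 over VC-PC3 (horizontal axis), each point a gene, with the list median as a black line. Blue genes were lower, red genes higher and grey genes missed the threshold of 0.05 on limma's adjusted p. The receptor median lies at -0.83 and the dystroglycan glycosylation median at 0.45.

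All 23 basement membrane partners of laminin listed were measured. Of these limma called 10 lower in PDEF-PC3, 6 higher and 7 neither way, where 24.0% of all genes were lower and 26.7% higher. Their median log2 fold change was -0.17. NID1 and NID2 encode the nidogens, which bind the gamma-1 chain. NID1 had log2 values of 9.29 and 9.21 in PDEF-PC3, against 7.43 and 7.33 in VC-PC3, and rose by 1.87 (adjusted p = 1.57e-05). NID2 had 6.96 and 7.07 in PDEF-PC3, against 4.59 and 5.15 in VC-PC3, below the gauge, and was at least 2.06-fold higher. Both nidogen genes were thus higher while LAMC1 itself differed little.
AGRN, which encodes the proteoglycan agrin that joins laminin to dystroglycan, had log2 values of 6.82 and 6.74 in PDEF-PC3, against 9.10 and 8.95 in VC-PC3, a fall of 2.25 (adjusted p = 1.00e-05). NTN4, which encodes the laminin-like netrin-4, fell by 1.87 (adjusted p = 1.10e-05). COL4A5, a type IV collagen gene, fell by 1.54, with 1 of its PDEF-PC3 arrays below the gauge, and TINAGL1, which encodes a matrix glycoprotein, was at least 1.38-fold lower. FBLN1, the fibulin-1 gene, rose by 0.83 and SMOC1, a matricellular gene, was at least 1.41-fold higher. The adjusted p of SMOC1, 0.00779, was 0.0915 without PDEF-PC3 replicate 1, 0.164 without PDEF-PC3 replicate 2, 0.101 without VC-PC3 replicate 2 and 0.0697 with the replicate block.

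Genes that glycosylate dystroglycan, the sugar-bearing receptor of laminin globular domains, were mostly higher. Of 13 listed, 9 were measured. Of these limma called 6 higher in PDEF-PC3, 1 lower and 2 neither way, where 26.7% of all genes were higher and 24.0% lower. The dystroglycan gene itself was not analysed here. B3GALNT2, a glycosyltransferase gene, had log2 values of 9.14 and 9.32 in PDEF-PC3, against 7.92 and 7.73 in VC-PC3, and rose by 1.41 (adjusted p = 0.000101). POMK, which encodes the kinase that phosphorylates the mannose of this glycan, had 8.97 and 8.94 in PDEF-PC3, against 7.68 and 7.69 in VC-PC3, and rose by 1.27 (adjusted p = 4.52e-05). POMT1, which encodes an enzyme that attaches the first mannose, rose by 0.62 (adjusted p = 0.00178), and LARGE2, which encodes an enzyme of the laminin-binding end of the glycan, by 0.51 (adjusted p = 0.00345). POMGNT1, a glycosyltransferase gene, fell by 0.60 (adjusted p = 0.0025). Without PDEF-PC3 replicate 1, and likewise without PDEF-PC3 replicate 2, fewer of these genes were called, as among all genes. The log2 fold change was then 0.535 and 0.485 for LARGE2, and -0.625 and -0.575 for POMGNT1. The adjusted p was then 0.0566 and 0.0676 for LARGE2, and 0.0626 and 0.0736 for POMGNT1.

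Of 10 genes of proteases that cut laminin chains or activate plasmin, which does so, limma called 5 lower in PDEF-PC3, 1 higher and 4 neither way, beside 24.0% lower and 26.7% higher among all genes. The plasminogen activator genes PLAU and PLAT were both lower. PLAU fell by 4.02 (adjusted p = 2.50e-06) and PLAT fell by 2.28 (adjusted p = 8.33e-06). MMP14, which encodes a membrane protease, fell by 3.80 (adjusted p = 2.66e-06). BMP1, which encodes a protease that trims laminin chains after secretion, had log2 values of 6.01 and 6.15 in PDEF-PC3, against 6.65 and 6.51 in VC-PC3. BMP1 fell by 0.50 (adjusted p = 0.00565), and its adjusted p was 0.0831 without PDEF-PC3 replicate 1, 0.0564 without PDEF-PC3 replicate 2 and 0.0730 without VC-PC3 replicate 1. MMP2, the gelatinase gene, was the gene called higher (adjusted p = 3.85e-05), with 5.98 and 5.92 in PDEF-PC3, against 4.61 and 4.59 in VC-PC3. The PDEF-PC3 values of MMP2 were on average below the VC-PC3 gauge, so no fold is given.

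Markers of epithelial and of other cells moved with these results, and their part in them was not tested. Of 5 epithelial genes, limma called 3 lower in PDEF-PC3, none higher and 2 neither way, beside 24.0% lower and 26.7% higher among all genes. Their mean log2 signal was 7.03 and 7.18 in the PDEF-PC3 arrays and 8.06 and 8.02 in the VC-PC3 arrays. KRT8 and KRT18 were above the gauge in every array and CDH1 in none. KRT19 and EPCAM were each above it in both VC-PC3 arrays and in 1 PDEF-PC3 array. The genes called lower were KRT19 (log2 fold change -2.045), EPCAM (-1.685) and KRT8 (-0.635). Of 8 embryonic kidney and neuronal genes, 7 were measured. Of these 4 were higher and none lower, beside 26.7% higher and 24.0% lower among all genes. The mean log2 signal of the 7 was 7.71 and 7.72 in PDEF-PC3, against 5.80 and 5.73 in VC-PC3. NEFM and LIN28B, the members with the largest difference, were above the gauge in PDEF-PC3 and not in VC-PC3. PAX2 was below it in all 4 arrays. Of the kidney genes, WT1 was called higher, at a log2 fold change of 0.43. LHX1 (0.28), SIX2 (0.155) and PAX2 (-0.005) were not called. The other genes called higher were NEFM, LIN28B and NEFL (1.92).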

How the data were processed

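RNA of 2 PDEF-PC3 and 2 VC-PC3 samples was measured on Affymetrix human gene arrays. The values deposited by the authors are log2 signals for 33297 probe sets, with the base of the logarithm inferred from their range. The submitters' processing notes name Transcriptome Analysis Console; its version and the background correction and scaling it applied were not given in the sources used here. With array medians of 5.41 to 5.46 the signals were analysed as they stood, and any shift common to all genes is lost in such scaling. The platform annotation and the gene table of GRCh38.p14 gave the gene names. Probe sets of 1 symbol (19460) were used, and those of several symbols (1754) or absent from the annotation (12083) were not. A gene with more than 1 probe set was read from the one with the highest mean, giving 18417 genes, and dim genes were kept.

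PDEF-PC3 was set against VC-PC3 with limma 3.58.1 in R 4.3.3 (lmFit and eBayes, two-sided, 2 residual and 4.23 prior degrees of freedom), with adjustment over all genes by Benjamini-Hochberg. The script was tested on simulated data. The number of arrays limits the precision: by exact permutation, the smallest two-sided p for 2 against 2 is 0.333. The members and lists were chosen with earlier results of these data known. All members are named, and of each list up to 4 genes called in each direction, those with the largest change that were above the gauge in both arrays of the higher group, together with the 3 genes most like the members with the largest fall and rise. A fold written as at least puts the higher of the gauge and the measured signal in place of each dim array. List genes that matched no probe set of a single symbol are not reported here. Alternatives were other scalings, filters, probe set rules, a floor, a variance trend, the replicate block and leaving out 1 array.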

Additional observations from a re-analysis of the deposited data

How the results depend on the processing

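The directions and calls of LAMB3, LAMB2 and LAMA5 held under every alternative run, and those of LAMA1 held wherever it was tested. With 1 array left out their adjusted p lay between 0.0127 and 0.0234 (limma). Same-numbered arrays share only a number (correlation of their deviations from the group means 0.022 over genes). With the replicate block, 3 laminin chains were lower and 1 was higher, and no laminin call changed. Of all 18417 genes, 3619 were then lower and 4355 higher. Among genes above the median level, LAMA1, LAMA2, LAMA4, ITGA7 and MMP2 were among those not tested. Of the 5 laminin chains, 6 receptors and 4 proteases left, 0 were higher. Of the 9 basement membrane partners left, 5 were lower and 2 higher. Of all 9208 genes left, 3009 were lower and 3928 higher. With signals raised to the highest olfactory receptor gene, a floor that is itself lower in PDEF-PC3, the median of all genes was -0.28, against -0.05 without the floor, and the spread of dim genes was removed. With this floor 11341 of all 18417 genes were lower and 4594 higher. Then 5 of 8 laminin chains were lower, including LAMA2 and LAMA4 at -0.28 each. Of the partners and proteases, 17 of 23 basement membrane partners and 9 of 10 proteases were lower. LAMA1 had a log2 fold change of 1.39. ITGA7 was at -0.28 and MMP2 at -0.025 in place of higher, and 0 receptors and 0 proteases were higher. With a variance trend 2 laminin chains were higher, since LAMC1 passed the test, beside 5147 of all 18417 genes. The LAMA2 log2 fold change was 0.029 after quantile normalization and -0.13 to 0.02 with 1 array left out, and that of LAMA4 was -0.14 to 0.075. Leaving out 1 array gave fewer dystroglycan glycosylation genes higher, as among all genes. POMGNT1 then had a log2 fold change of -0.695 to -0.505, and its call held only without a VC-PC3 array. ITGA7 had a log2 fold change of 0.325 to 0.455, and its call held only without VC-PC3 replicate 1. With the 95th percentile of the olfactory receptor genes as gauge, 7 laminin chains were above it in both arrays of PDEF-PC3 and of VC-PC3. LAMA4, and LAMA1 in VC-PC3, were above this lower gauge but not above the main one.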
